A study of Sus scrofa with 3 samples.

Results

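The kynurenine pathway breaks down tryptophan, and 10 of its genes were looked for by symbol in a table of kidney RNA counts from pigs: AADAT, KMO, KYNU, HAAO, ACMSD, QPRT, AFMID, IDO1, TDO2 and GOT2. A row under its own symbol was found for 5 of the 10, among 34570 genes in all. These are AADAT, GOT2, KMO, KYNU and IDO1. ACMSD and QPRT were found under numbered identifiers that a RefSeq gene table pairs with those symbols, and they are described beside the 5. No row was matched to HAAO, AFMID or TDO2, which are not analysed here. The set was chosen by pathway membership with the measured counts of these same libraries already known, those of AADAT above all, so the values below are a description and test nothing.

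Kidneys came from Wuzhishan pigs, a Chinese miniature breed, aged 6 to 7 months, and all of them ate a high-fat, high-cholesterol (HFC) diet. One group was of intact males (IM). Another was castrated (CM), and the last was castrated and had testosterone replacement (CMT). Each group is 1 library made from the mixed RNA of 3 pigs, so 9 pigs gave 3 libraries. The design text speaks of triplicates, but the table has 1 column of counts per group, and this conflict was not settled. Pooling hides the spread between pigs, so there are no p-values, and the sources used here give neither the testosterone dose nor the time since castration. The IM library held 16459771 counts, the CM library 18503537 and the CMT library 13601475.

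Tryptophan is opened to N-formylkynurenine by IDO1 or IDO2, which interferon can induce in immune and other cells, or by TDO2, the enzyme of the liver, and AFMID then releases kynurenine. Kynurenine stands at a fork. Aminotransferases turn it into kynurenic acid, a blocker of glutamate receptors that the kidney excretes, while KMO and the enzymes after it lead towards quinolinic acid and NAD. AADAT, also called kynurenine aminotransferase II, is a mitochondrial enzyme with a further role, since it transfers the amino group of 2-aminoadipate in the breakdown of lysine.

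AADAT was the member that set the castrated pool apart. It was 6.82-fold lower in CM than in IM and 8.06-fold higher in CMT than in CM, and the CMT library was within 1.18-fold of IM. GOT2, KMO and KYNU, the other members found by symbol with enough counts to compare, differed by at most 1.56-fold between any pair of libraries. ACMSD and QPRT, found under numbered identifiers, differed by at most 1.64-fold, the value of ACMSD in CM against IM. KMO was highest in IM and close to equal in CM and CMT, while KYNU, on 51 to 79 counts, and ACMSD had their lowest scaled value in CM.

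AADAT gave 29481 counts in IM, 4932 in CM and 27834 in CMT. On the scaled level these are 1781 CPM (counts per 1000000 of the scaled library; exact 95% Poisson interval 1760 to 1801) in IM, 261 CPM (254 to 268) in CM and 2103 CPM (2078 to 2128) in CMT. The CM library was low and the other two were high, with no overlap of the intervals. Of all counts in a library, AADAT made up 0.179% in IM, 0.0267% in CM and 0.205% in that of CMT.

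A fold here is the ratio of scaled counts, followed by its exact 95% interval. A gene is called higher or lower where that interval lies wholly beyond 2-fold. Such an interval holds the error of counting alone: reads can be copies of 1 molecule, and differences between pigs are outside it. For AADAT, CM lay below IM by 6.82-fold (6.62 to 7.03) and CMT above CM by 8.06-fold (7.82 to 8.31), and both were called. Both comparisons use the same CM library, so that they are not independent of each other. CMT against IM gave 1.18-fold (1.16 to 1.20), which is short of the rule. In a pool of whole kidney, fewer cells of a type and less RNA per cell cannot be told apart.

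**Figure D1:**
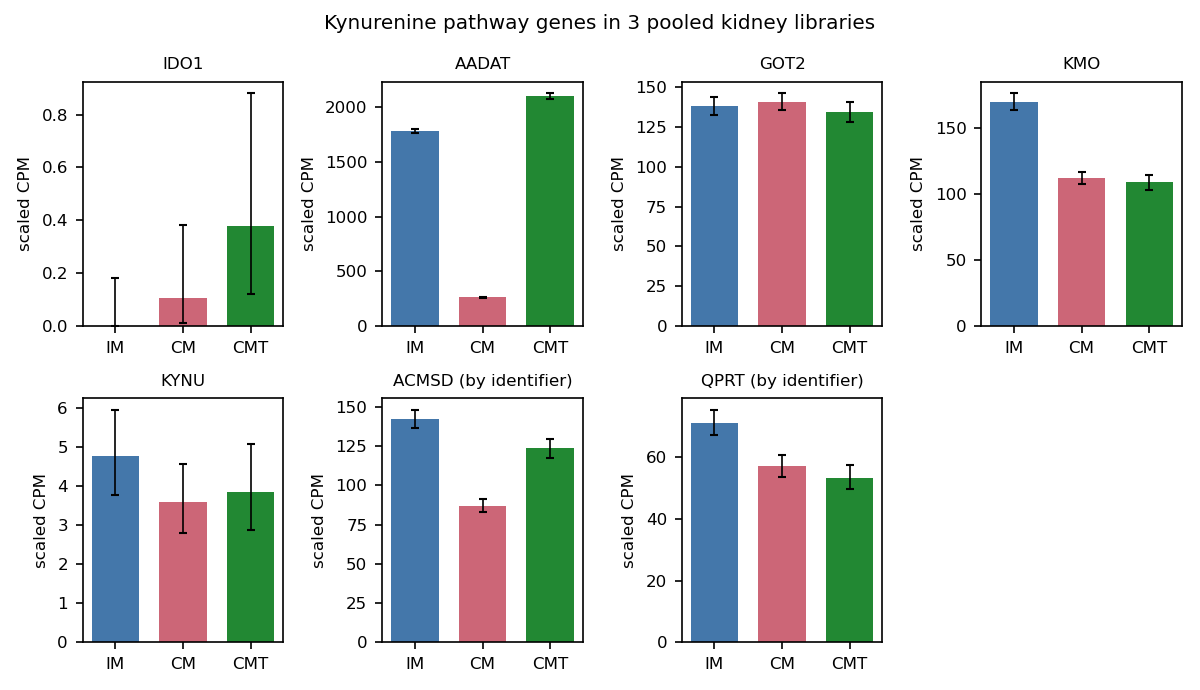
Scaled counts (CPM, vertical axis, from 0 and with its own scale in each panel) of 7 kynurenine pathway genes in the 3 pooled libraries IM, CM and CMT; each bar is 1 library and the line its exact 95% Poisson interval or, at 0 counts, the range up to 3 counts, which covers counting error only. AADAT stands at 1781, 261 and 2103 CPM, while GOT2 lies between 134 and 141 CPM.

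Against the background of all genes, 1 of the 5 members was called lower in CM than in IM, where 1.52% of the 15472 compared genes were called lower, and 0 were called higher, where 1.2% were. Between CMT and CM, 1 member was called higher, with 1.84% of all genes, and 0 were called lower, with 1.11%. Between CMT and IM no member was called, against 0.905% of all genes higher and 0.595% lower. The called member is AADAT in both cases. Only 4 of the 5 reached the mean of 1 scaled CPM needed for a comparison, IDO1 being the exception. Of the 1719 genes with a mean of at least 100 scaled CPM, 5 had a lower fold than AADAT in CM against IM and 9 a higher one in CMT against CM. AADAT belongs to the 147 genes, 0.95% of those compared, that were called lower in CM than in both other libraries, and 139 of the 147 were called neither way between CMT and IM.

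**Figure D2:**
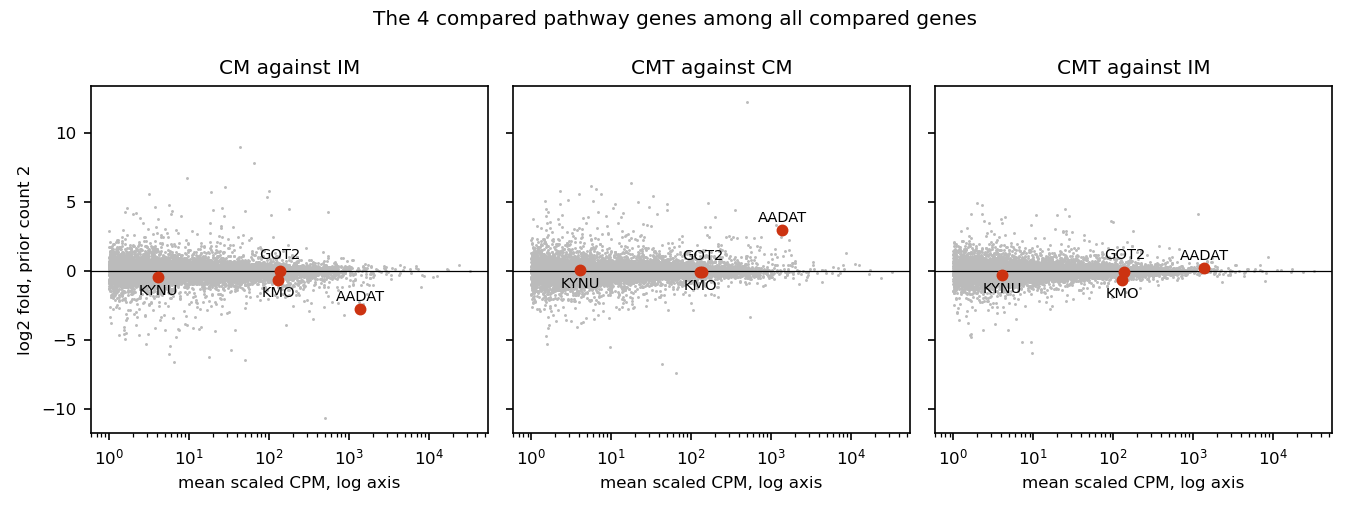
Log2 fold (vertical axis, with a prior count of 2) against the mean scaled CPM over the 3 libraries (horizontal log axis) for the 15472 compared genes (grey points), with the 4 compared members in red, in 3 comparisons. AADAT lies at -2.77, 3.01 and 0.24 in the panels from left to right, while KYNU, KMO and GOT2 stay among the grey points near 0.

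AADAT is 1 of 4 enzymes known to make kynurenic acid. GOT2, the mitochondrial aspartate aminotransferase, gave 2291, 2662 and 1776 counts in the IM, CM and CMT libraries, or 138, 141 and 134 scaled CPM. The 3 Poisson intervals of GOT2 overlapped. Its fold was 1.02 (0.962 to 1.08) for CM against IM, 0.953 (0.897 to 1.01) for CMT against CM and 0.970 (0.911 to 1.03) for CMT against IM, so that no difference was detectable at this depth.

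CCBL1, the gene of kynurenine aminotransferase I (KYAT1), gave 3302, 2515 and 2805 counts, or 199, 133 and 212 scaled CPM. It had its lowest value in CM, as AADAT did, at a far smaller fold: CM was 1.499-fold (1.42 to 1.58) below IM and CMT was 1.59-fold (1.51 to 1.68) above CM. CCBL2, the gene of kynurenine aminotransferase III (KYAT3), gave 8631, 8967 and 6682 counts, or 521, 474 and 505 scaled CPM, with CM 1.10-fold (1.07 to 1.13) below IM. Neither was called in any comparison.

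The make-up of the 4 aminotransferase transcripts therefore differed between the libraries. AADAT gave 67.5% of their summed counts in IM (exact Clopper-Pearson 95% interval 67.0 to 67.9), 25.9% in CM (25.2 to 26.5) and 71.2% in CMT (70.7 to 71.6). CCBL2 held 47.0% (46.3 to 47.7) in CM, against 19.7% in IM and 17.1% in CMT. In scaled CPM the 4 genes summed to 2640 in the IM library, 1009 in the CM library and 2954 in the CMT library. Counts also follow transcript length, which was not used here, so shares are not comparable between genes. Between libraries, the share of 1 gene also shifts with the counts of the others. CCBL2 had its highest share in CM, though its scaled CPM was lowest there, at 474 against 521 in IM and 505 in CMT.

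**Figure D3:**
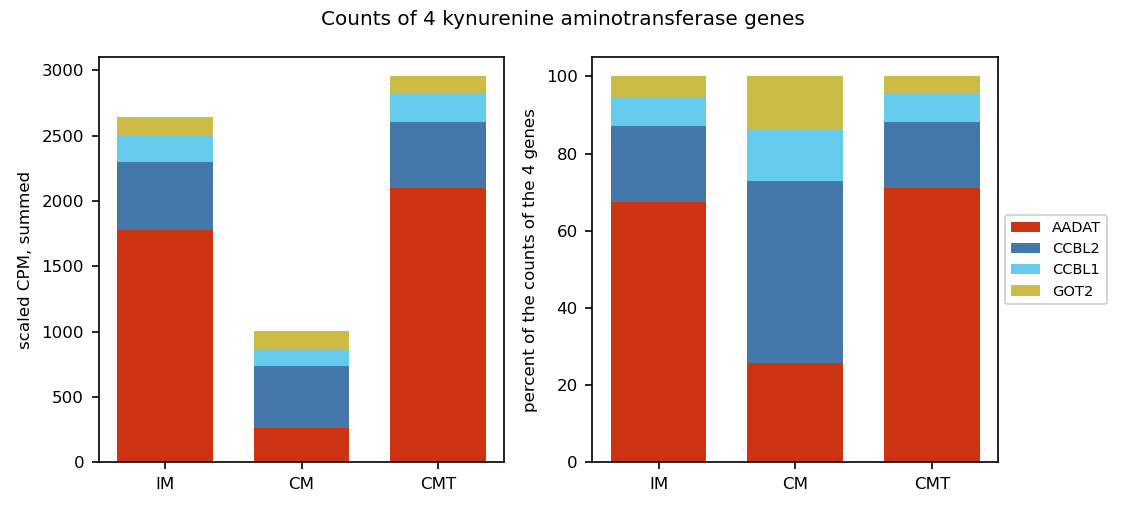
Summed scaled CPM (left, vertical axis from 0) and percent of the summed counts (right) of the 4 kynurenine aminotransferase genes AADAT, CCBL2, CCBL1 and GOT2 in the libraries IM, CM and CMT, with no replicates. The AADAT part shrinks from 67.5% in IM to 25.9% in CM and is 71.2% in CMT, while GOT2 lies between 134 and 141 CPM and CCBL2 between 474 and 521.

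At the entry of the pathway few counts were found. IDO1 had 0 counts in IM, 2 in CM and 5 in CMT. The count of 0 was taken to allow up to 3 counts, or 0.181 scaled CPM, in IM, where the exact Poisson interval ends at 0.223 CPM. The Poisson intervals of CM (0.0128 to 0.382 CPM) and CMT (0.123 to 0.882 CPM) overlapped. IDO1 was too low to be compared, and the interval of its fold in CMT over IM, on 5 and 0 counts, starts at 1.15. IDO2, its neighbour gene, found under a numbered identifier, gave 160, 119 and 109 counts, or 9.66, 6.30 and 8.24 scaled CPM. CM was 1.54-fold (1.20 to 1.96) below IM, and CMT against CM gave 1.31-fold (0.999 to 1.71). IDO2 was not called.

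Genes of the interferon-gamma response, both its signalling genes and its targets, were called in no comparison, with 18 of 22 listed genes compared. Their median log2 fold was 0.24 in CM against IM, with 14 of 18 above 0, -0.04 in CMT against CM, with 7 above 0, and 0.25 in CMT against IM, with 13 above 0. The medians over all compared genes were -0.0063, -0.0043 and -0.013. IFNG itself had 0, 3 and 0 counts in IM, CM and CMT.

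On the branch towards NAD, KMO hydroxylates kynurenine on the outer mitochondrial membrane. KMO gave 2817, 2121 and 1441 counts in the IM, CM and CMT libraries, or 170 (164 to 177), 112 (107 to 117) and 109 (103 to 115) scaled CPM. IM was high, and the intervals of CM and CMT overlapped. CM was 1.52-fold (1.43 to 1.60) below IM and CMT 1.56-fold (1.47 to 1.67) below IM, neither beyond the rule. CMT against CM gave 0.970-fold (0.907 to 1.04). With testosterone the KMO value was thus not nearer to that of the intact pool, in contrast to the AADAT value.

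The number of AADAT counts for each KMO count, a ratio within a library that no scaling touches, was 10.5 in IM, 2.33 in CM and 19.3 in CMT. It was 4.50-fold (4.22 to 4.80, normal approximation for counts) lower in CM than in IM and 8.31-fold (7.72 to 8.94) higher in CMT than in CM. CMT also lay 1.85-fold (1.73 to 1.97) above IM in this ratio, since AADAT was a little higher and KMO lower there. Counted against GOT2 in the same way, AADAT gave 12.9, 1.85 and 15.7 counts for each count of GOT2.

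KYNU, which cleaves 3-hydroxykynurenine to 3-hydroxyanthranilic acid, gave 79, 68 and 51 counts, or 4.77, 3.60 and 3.85 scaled CPM. All 3 intervals overlapped, and the fold of CM against IM was 0.754 (0.537 to 1.06). With counts this low, folds up to 1.86 in IM over CM lie inside the interval.

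After HAAO, the path divides again. ACMSD draws its product away from quinolinic acid towards full oxidation, and QPRT turns quinolinic acid into the precursor of NAD. ACMSD gave 2359, 1644 and 1636 counts in the IM, CM and CMT libraries, or 142, 87.0 and 124 scaled CPM. CM was the low library, 1.64-fold (1.54 to 1.75) below IM, and CMT was 1.42-fold (1.33 to 1.52) above CM, both short of the rule. QPRT gave 1176, 1076 and 705 counts, or 71.0, 56.9 and 53.3 scaled CPM. Like KMO it was highest in IM, with CM 1.25-fold (1.15 to 1.36) and CMT 1.33-fold (1.21 to 1.47) below it, and the intervals of CM and CMT overlapped. ALDH8A1, the dehydrogenase after ACMSD, gave 470, 572 and 637 counts, or 28.4, 30.3 and 48.1 scaled CPM, and was highest in CMT, 1.70-fold (1.503 to 1.91) above IM.

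**Figure D4:**
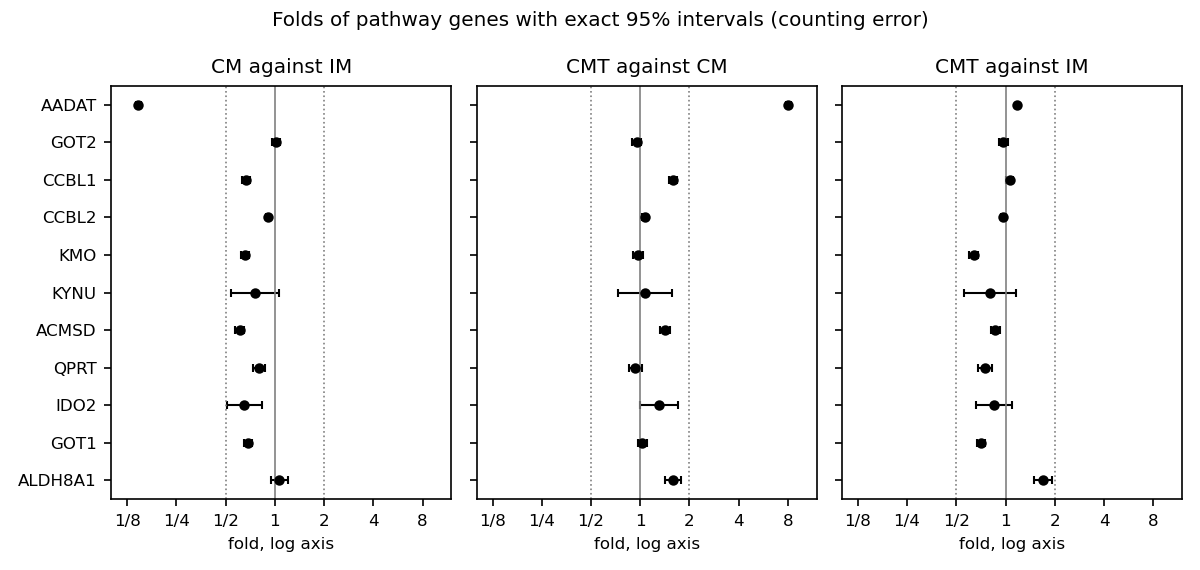
Fold of scaled counts (horizontal log axis) with its exact 95% interval, covering counting error only, for 11 kynurenine pathway genes in 3 comparisons of 1 library with another; dotted lines mark 2-fold in both directions. AADAT lies beyond 2-fold in CM against IM and CMT against CM, and the other 10 genes do not in any panel.

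Of the 5 further pathway genes (CCBL1, CCBL2, IDO2, GOT1 and ALDH8A1), 0 were called in any comparison. With so few genes called in the whole table, 0 calls in a list this short is near the background, which holds for the other short lists too. Their median log2 fold was -0.55 for CM against IM, 0.38 for CMT against CM and -0.05 for CMT against IM. GOT1, the cytosolic aspartate aminotransferase, gave 2960, 2314 and 1673 counts, or 179, 122 and 126 scaled CPM, and was highest in IM, 1.46-fold (1.38 to 1.54) above CM.

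Markers of kidney segments gave no call in any comparison. The libraries carried the defining kidney genes, such as UMOD of the loop of Henle (94626, 130566 and 105591 counts) and CUBN of the proximal tubule (25207, 33712 and 22921). Of 7 proximal tubule markers 0 were called in any comparison, and their summed level in scaled CPM was 8124, 8354 and 7783. The genes of the list differed in direction: in CM against IM, SLC5A2 and SLC5A12, sodium-coupled carriers of glucose and of monocarboxylates, had folds of 0.67 and 0.69, and the other 5 ran from 1.08 for LRP2 to 1.17 for CUBN. SLC5A12 then had a fold of 1.40 in CMT against CM. The part of proximal tubule cells in the AADAT difference was not tested. Markers of the loop of Henle, distal convoluted tubule, collecting duct, podocyte and endothelium gave 0 calls among 2, 1, 3, 3 and 3 compared genes in every comparison.

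AADAT is also a gene of the liver, and hepatocyte markers did move. Their 10 genes summed to 182, 76.4 and 162 scaled CPM in the IM, CM and CMT libraries. ALB carried the low sum of CM: the other 9 genes, taken apart after their values were seen, summed to 64.2, 75.2 and 131 scaled CPM, and over the 7 genes compared the median was 0.12 (log2 fold) in CM against IM. The genes of the list went different ways. ALB, the plasma albumin gene, gave 1952, 24 and 404 counts, and TTR, a carrier of thyroid hormone and retinol, gave 133, 489 and 775. ALB was called lower in CM than in IM (92.9-fold, 62.2 to 145) and TTR higher (3.22-fold, 2.65 to 3.93). Of all compared genes, 1.52% were called lower and 1.2% higher there. HPX, the haem-binding hemopexin, gave 151, 361 and 125 counts, with CM 2.09-fold (1.73 to 2.55) above IM, which misses the rule. In CMT against CM, ALB (24.04-fold, 15.9 to 38.0), SERPINC1, the antithrombin gene (2.68-fold, 2.35 to 3.07), and TTR (2.26-fold, 2.02 to 2.54) were called higher. The share called higher over all compared genes was 1.84%. Between CMT and IM, ALB was called lower in CMT (3.86-fold, 3.47 to 4.31) and TTR higher (7.29-fold, 6.06 to 8.83). Over all compared genes, 0.595% were called lower and 0.905% higher in that comparison. CPS1, the urea cycle enzyme that marks hepatocytes, had 0 counts in all 3 libraries, and APOB had 1, 0 and 5. What part hepatocyte-type RNA had in the AADAT difference was not tested.

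Macrophage and dendritic cell markers, which stand for cells that can make IDO1 and KMO, summed to 45.1, 58.5 and 63.7 scaled CPM in IM, CM and CMT, and 0 of the 6 compared were called. These genes went different ways. In CM against IM, CSF1R and CD14 had folds of 1.95 and 1.53, and the other compared genes ran from 0.68 for FLT3 to 0.98 for AIF1. The median log2 fold was -0.09. Lymphocyte markers summed to 16.2, 23.0 and 17.2 scaled CPM. CD79A, a B-cell receptor chain, was the 1 called gene of 5, lower in CMT than in CM (4.73-fold, 2.24 to 11.5, on 8 and 54 counts). In that comparison 1.11% of all compared genes were called lower. What part such cells had in the IDO1 and KMO values was not tested.

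The other substrate of AADAT is 2-aminoadipate from lysine. Of the 13 measured genes of lysine breakdown and the steps after 2-aminoadipate, 0 were called in any comparison. The median log2 fold was -0.10 in CM against IM and 0.02 in CMT against CM. Single folds of CM against IM ran from 0.68 for CRYM, a ketimine reductase, to 1.51 for GCDH, the glutaryl-CoA dehydrogenase. AASS, which opens the route, gave 922, 878 and 622 counts, with a fold of 0.83. With 1.52% of all compared genes called lower and 1.2% higher in CM against IM, 0 of 13 is near the background.

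Other aminotransferases and the aspartate shuttle gave the same count, 0 of 15 called in any comparison, with median log2 folds of 0.06 for CM against IM, 0.06 for CMT against CM and 0.08 for CMT against IM. GPT2, the mitochondrial alanine aminotransferase, had folds of 0.73 and 1.67 in CM against IM and CMT against CM, and AGXT2, which uses many amino donors, had 0.96 and 1.10. Genes that supply pyridoxal phosphate, the cofactor of AADAT, KYNU and GOT2, were called in no comparison (5 compared), with a median log2 fold of -0.02 in CM against IM and -0.31 in CMT against CM.

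NAD synthesis beyond QPRT showed 1 call, of a gene lower in CMT than in CM, as 1.11% of all compared genes were. NMNAT3, the mitochondrial NMN adenylyltransferase, gave 58, 149 and 34 counts. The CMT library was below the CM library by 3.07-fold (2.10 to 4.59). CM was its high library, at 2.25-fold (1.65 to 3.10) over IM, which misses the rule. NMNAT1, the nuclear NMN adenylyltransferase, gave 51, 28 and 61 counts and was lowest in CM, 2.08-fold (1.29 to 3.42) below IM, with CMT 3.11-fold (1.96 to 5.06) above CM, both short of the rule. NMNAT1 and the other 6 of 8 compared genes of that list were called in no comparison. Among them was NAMPT, the rate-limiting enzyme of NAD salvage, with 714, 614 and 524 counts and a fold of 0.75 in CM against IM. Of 15 NAD-consuming sirtuins, PARPs and related enzymes, 0 were called in any comparison, with medians of -0.05, -0.02 and -0.06.

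Among other fates of tryptophan, INMT moved against AADAT. This methyltransferase, which acts on tryptamine and other indoles, gave 1625, 5092 and 1107 counts, or 98.1, 269 and 83.6 scaled CPM. CM was high and the other libraries low. CM lay above IM by 2.74-fold (2.60 to 2.90) and CMT below CM by 3.22-fold (3.02 to 3.44), both called, and CMT against IM gave 0.852 (0.789 to 0.920). It was the 1 called gene of 8 in its list in both comparisons. Over all compared genes, 1.2% were called higher in CM against IM and 1.11% lower in CMT against CM. DDC, which makes tryptamine from tryptophan and serotonin from hydroxytryptophan, gave 9544, 9314 and 7441 counts and was not called.

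Carriers of tryptophan and kynurenines had a median log2 fold of -0.43 for CM against IM, 0.11 for CMT against CM and -0.42 for CMT against IM over 11 compared genes. SLC16A10, the aromatic amino acid transporter TAT1, was the called gene among them, with CM below IM by 3.18-fold (2.48 to 4.10) on 88 and 245 counts. The share called lower over all compared genes was 1.52% there. With 113 counts in CMT it lay 1.83-fold (1.38 to 2.45) above CM and 1.73-fold (1.38 to 2.19) below IM, neither of them called. SLC22A8, an organic anion transporter of the basolateral membrane that carries kynurenic acid among other anions, gave 46864, 61388 and 32719 counts and was not called.

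Of 6 compared receptors and responders of kynurenines, 1 was called lower in each comparison with IM and 0 were called in CMT against CM. Over all compared genes, 1.52% were called lower in CM against IM and 0.595% in CMT against IM. The receptor AHR, to which kynurenine and kynurenic acid can bind, gave 132, 139 and 95 counts and was not called. Its classic target CYP1A1 gave 186, 88 and 27 counts, or 11.2, 4.66 and 2.04 scaled CPM, highest in IM and lowest in CMT. CYP1A1 was lower in CMT than in IM by 5.51-fold (3.67 to 8.58). Other responders of the list did not all follow CYP1A1. In CMT against IM, TIPARP had a fold of 1.73 (1.42 to 2.11) and NQO1 of 1.25 (1.02 to 1.53), neither called. CYP1A2, too low to compare, gave 25, 13 and 7 counts. GRIN2B, a subunit of the glutamate receptor that kynurenic acid blocks, gave 70, 19 and 45 counts, and its CM value was below that of IM by 4.21-fold (2.50 to 7.40). CMT against CM for GRIN2B gave 3.38-fold (1.94 to 6.12), just short of the rule.

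**Figure D5:**
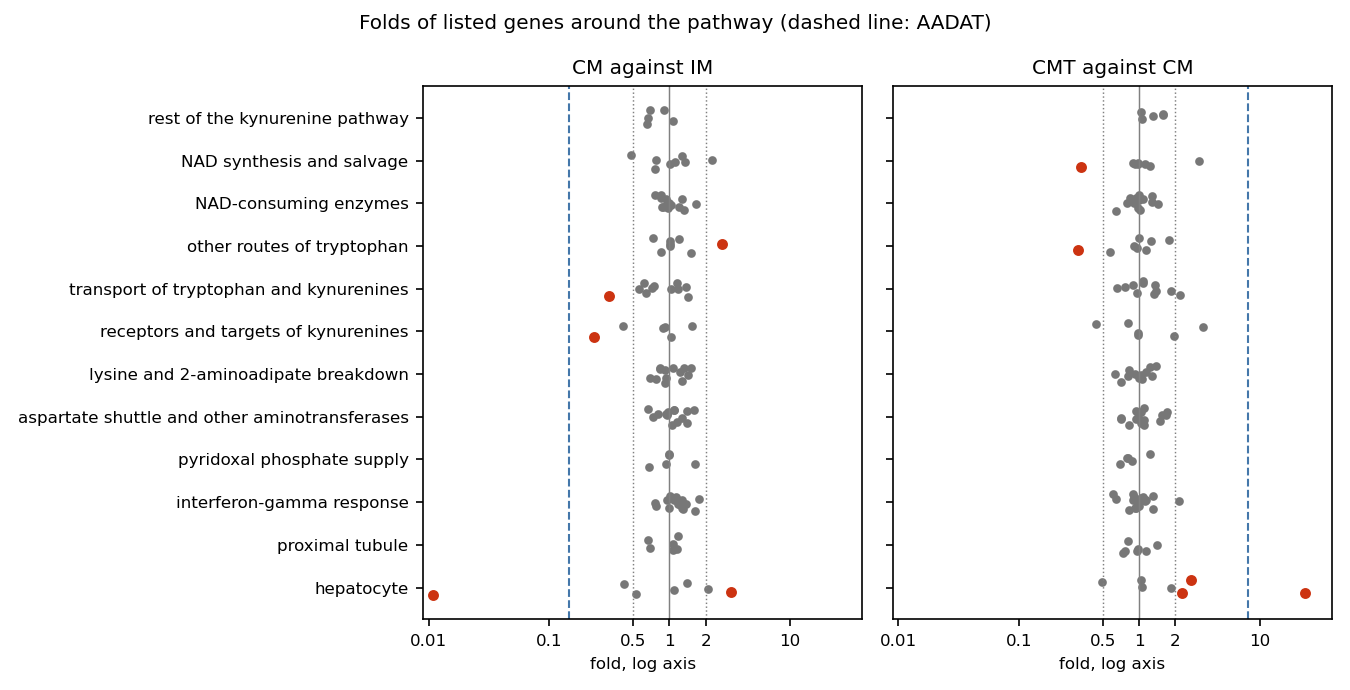
Folds (horizontal log axis) of the compared genes of 12 lists around the kynurenine pathway in CM against IM and CMT against CM; each point is 1 gene, red points are called beyond 2-fold, grey points are not, dotted lines mark 2-fold in both directions and the dashed line marks AADAT. Most points lie between the dotted lines, and ALB of the hepatocyte list is the 1 red point farther from 1 than AADAT in each panel.

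Among genes with a symbol, those whose values over the 3 libraries were most like those of AADAT came from outside the pathway. Likeness was the distance between the pairs of log2 folds of CM against IM and of CMT against CM, over 7698 other genes with a symbol and a mean of at least 10 scaled CPM. The nearest 5 were JAZF1 (distance 0.23), ASB11 (0.35), EAF1 (0.52), BVES (0.55) and CDO1 (0.56). With 3 libraries such a match is loose, and many genes share the shape. Genes with only a numbered identifier were left out of this search. One of them, LOC100627844, gave 25786, 5753 and 34250 counts, with folds of 0.195 in CM against IM and 8.50 in CMT against CM. JAZF1, a zinc finger gene, gave 374, 71 and 397 counts. EAF1, an elongation factor partner, gave 11496, 2176 and 8739 counts, and CM lay below IM by 6.03-fold (5.76 to 6.32). CDO1, the cysteine dioxygenase, gave 351, 57 and 226 counts.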

How the data were processed

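Kidney RNA of 3 pools was measured, with 1 library for each of IM, CM and CMT. The authors deposited 1 table of raw counts per gene. Per the labels' protocols, RNA was taken up in TRIzol, pooled within a group and made into libraries with an Ion Torrent kit, while the design text names an Illumina sequencer. FastQC is the tool named in the submitters' processing notes. The aligner, counter, strand setting, build and annotation are not given in the sources used here. For that reason coordinates are left out, and reads shared by similar or overlapping genes are unknown. An unnamed deposited column with 4 values, a ratio of CM to CMT counts, was not used.

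Library sizes were scaled with TMM (edgeR 4.0.16, R 4.3.3), with factors of 1.01, 1.02 and 0.973 for IM, CM and CMT. Genes with a mean of at least 1 scaled CPM were compared, 15472 of 34570. With 1 library per group no count model was fitted. Folds carry the exact 95% interval by Clopper and Pearson (scipy 1.17.1), levels the exact Poisson interval, and log2 folds a prior count of 2. A count of 0 was taken to allow 3 counts, a fixed setting, which is 0.181, 0.159 and 0.227 scaled CPM in IM, CM and CMT.

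Of 19902 numbered identifiers, 1556 took a symbol from RefSeq (Sscrofa11.1). A row named TDO, not paired with TDO2 there, was not used. The members and the 19 gene lists were chosen with earlier results of these data known. Named were all members, all 5 further pathway genes, up to 2 higher and 2 lower called genes of each list, and the 5 genes most like AADAT. Other listed genes, and LOC100627844, were named after their values were seen. SLC22A8, SLC22A6, TAT and AOX1 stand in 2 lists each. Promoter and protein sequences were not analysed here. Alternatives changed the scaling, the genes in the library, the depth, the fold, the filter, the gene types and the prior count.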

Additional observations from a re-analysis of the deposited data

How the results depend on the processing

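Of the 5 members with a row under their symbol, AADAT was the 1 called in CM against IM and in CMT against CM. No member of the 5 was called in CMT against IM. This held under total-count scaling, median-of-ratios size factors, removal of rRNA and mitochondrially encoded genes, and thinning to the smallest total. It also held under a 1.5-fold rule and with no filter. ACMSD and QPRT were not counted among the members there. The main interval of ACMSD in CM against IM, 1.54 to 1.75-fold lower, lies beyond 1.5-fold. So do those of CCBL1 in CMT against CM (1.51 to 1.68) and of ALDH8A1 in CMT against IM (1.503 to 1.91). With total counts in place of TMM, AADAT was higher in CMT than in CM by 7.68-fold and in CMT than in IM by 1.14-fold. Its value in CM against IM ran from 6.72 to 6.87-fold lower over the 4 scaling and depth alternatives. Under the 1.5-fold rule more genes passed, by construction. There were 434 higher and 529 lower in CM against IM, 570 and 404 in CMT against CM, and 356 and 223 in CMT against IM, and of the listed genes 14, 14 and 9 were called in place of 5, 6 and 3. All other values, 190 in all, stayed within their counting interval, within 1.5 times the main count or, for the median log2 fold of a list, within 0.1. No paired analysis was possible because each group is 1 library, and no replicate could be left out for the same reason. Depth limits IDO1 and KYNU most.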

Other observations

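Of the genes beside AADAT in the gene order of the RefSeq assembly Sscrofa11.1, MFAP3L and GALNT7 had enough counts to compare, and neither was called. MFAP3L, the next protein-coding gene on one side, gave 2588, 3513 and 1937 counts in the IM, CM and CMT libraries, with folds of 1.19 (1.13 to 1.25) in CM against IM and 0.787 (0.745 to 0.833) in CMT against CM. GALNTL6, the next on the other side, gave 9, 4 and 3 counts and was too low to compare. The gene after MFAP3L was matched to no row and is not analysed here. GALNT7, which lies beyond GALNTL6, gave 297, 265 and 165 counts, with folds of 0.782 (0.660 to 0.925) and 0.889 (0.728 to 1.08). Of the other members, KMO lies beside FH, the fumarase gene, which gave 5964, 5852 and 4057 counts and a fold of 0.859 (0.829 to 0.891) in CM against IM. DEGS1, on the other side of KMO beyond a gene matched to no row, gave 1862, 1252 and 1810 counts. Its folds were 0.589 (0.548 to 0.633) in CM against IM and 2.06 (1.92 to 2.22) in CMT against CM. Near GOT2, CDH8 had folds of 0.412 and 2.95 on 34, 16 and 33 counts, and CNOT1 had 1.02 and 0.956. None of these was called.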
